A study of Homo sapiens with 6 samples.

Results

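POSTN, TGFBI, LRRC15 and SCUBE3 are 4 genes associated with fibrosis that were chosen because they rose in ZNF469-knockdown lung fibroblasts while the collagen transcripts fell. They are 4 of the 23754 features in the count table, and all 4 were among the 13991 features with enough counts to be tested. Because the choice rested on this same comparison, their fold changes are given below as a description, without a test.

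The cells were IMR-90, a human fetal lung fibroblast line, carrying the sh-2 hairpin against ZNF469 in a doxycycline-inducible Tet-pLKO-puro lentiviral vector and kept under puromycin. In the DOX+ group (3 libraries) the hairpin was induced with doxycycline at 2 µg/mL for 4 days; the DOX- group (3 libraries) was the same line without doxycycline, which the submitted labels call wild-type. Every DOX+ library received the drug together with the hairpin, so the effect of either cannot be told apart in these libraries. The submitters describe the libraries as technical replicates, so all p-values measure a spread between libraries that may hold no variation between cultures. Poly(A)-selected RNA was sequenced, and the libraries held 34057675 to 36120260 counts. DOX+ replicate 2 stood apart on the first principal component (23.9% of the variance), with a score of 32.8 against -12.6 to 0.524 in the other libraries. On the second component DOX+ replicate 3 lay at -29 and DOX- replicate 1 at 20.3, with the other libraries from 0.721 to 4.51. Of 10 fibroblast markers all 10 were tested, whereas KRT5, SFTPC, SFTPB and NKX2-1 of the epithelial markers, PECAM1 and CDH5 of the endothelial markers, and CD3E, MS4A1 and LYZ of the leukocyte markers were at 0 in every library. Other markers of those lists, EPCAM, MUC1, VWF, TEK and CD68, were tested, with 62, 292, 117, 4440 and 13274 counts over all 6 libraries.

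Fibroblasts that lay down scar tissue secrete, besides collagen fibrils, matricellular proteins that bind collagens, fibronectin and integrins and so link the matrix to the cell surface. POSTN (periostin) and TGFBI (transforming growth factor beta-induced protein) are a pair of such secreted proteins built from FAS1 domains, and both bind integrins. LRRC15 is a leucine-rich repeat membrane protein known as a marker of myofibroblasts in tumour stroma, and SCUBE3 is a secreted, EGF-repeat glycoprotein that can engage TGF-β and BMP receptors. POSTN, TGFBI and LRRC15 are known to be inducible by TGF-β, the main pro-fibrotic cytokine of the lung, which signals through SMAD2 and SMAD3.

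The 4 genes lie on different chromosomes. In the GENCODE 44 annotation of GRCh38, POSTN (ENSG00000133110) occupies chr13:37562583-37598844 on the minus strand, with 23 exons in its canonical transcript and 836 encoded residues. TGFBI (ENSG00000120708) occupies chr5:136028988-136063818 on the plus strand, with 17 exons and 683 residues. LRRC15 (ENSG00000172061) occupies chr3:194355249-194369743 on the minus strand; it has 2 exons, of which 1 carries the whole coding sequence of 581 residues. SCUBE3 (ENSG00000146197) occupies chr6:35213956-35253079 on the plus strand, with 22 exons and 993 residues. The only annotated gene overlapping any of them was SCUBE3-AS1, a long noncoding RNA on the opposite strand of SCUBE3, for which the count table has no row. Whether counting used strand is not given in the sources used here, so reads of SCUBE3-AS1 in the SCUBE3 count cannot be told apart.

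Promoters are shown because these genes were grouped for moving together, and the sequences show how far their start regions resemble each other. RefSeq (GRCh38.p14) gave the window from 250 bases before to 50 bases after the start for 3 of the 4 genes, POSTN, TGFBI and LRRC15, and SCUBE3 had no entry. The 250 bases before each start are printed 5′ to 3′ along the gene, at chr13:37598769-37599018 (minus strand) for POSTN, chr5:136028738-136028987 (plus strand) for TGFBI and chr3:194369744-194369993 (minus strand) for LRRC15. The GENCODE body of POSTN begins further upstream, inside the printed stretch. Capitals mark matches, on either strand, to the TATA box TATAAA, the GC box GGGCGG bound by SP factors, the AP-1 motif TGANTCA and the CAGAC box bound by SMAD proteins; the CCAAT box CCAAT and the TEAD motif GGAATG were also searched and had no match in the 3 windows.
POSTN: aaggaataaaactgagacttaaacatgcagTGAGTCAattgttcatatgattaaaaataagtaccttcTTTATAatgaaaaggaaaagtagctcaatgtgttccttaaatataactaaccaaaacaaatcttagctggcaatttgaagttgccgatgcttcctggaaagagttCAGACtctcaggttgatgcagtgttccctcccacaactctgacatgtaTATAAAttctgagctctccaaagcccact
TGFBI: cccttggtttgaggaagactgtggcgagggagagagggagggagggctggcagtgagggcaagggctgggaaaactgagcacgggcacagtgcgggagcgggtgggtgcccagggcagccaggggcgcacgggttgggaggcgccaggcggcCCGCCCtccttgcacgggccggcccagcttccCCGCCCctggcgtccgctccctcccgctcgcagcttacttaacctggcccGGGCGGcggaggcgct
LRRC15: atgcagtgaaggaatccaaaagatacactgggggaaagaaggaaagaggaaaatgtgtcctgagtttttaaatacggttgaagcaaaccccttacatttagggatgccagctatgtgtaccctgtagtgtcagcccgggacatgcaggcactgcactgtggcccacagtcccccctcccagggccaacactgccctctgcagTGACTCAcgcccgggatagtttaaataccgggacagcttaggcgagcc

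The 3 promoters differed in composition. GC content over the 300-base window was 39.0% for POSTN, at percentile 10.1 of all 27305 RefSeq promoter windows, 54.7% for LRRC15 at percentile 41.1 and 72.7% for TGFBI at percentile 86.2, where the median window had 58.3%. POSTN held a TATA box from -29 to -24, counted from the RefSeq start as base 1, and a reverse TATA match from -182 to -177; 12.0% of all windows hold this motif. TGFBI held no TATA match but 4 GC boxes, at -98 to -93, -66 to -61 and -16 to -11, and at 16 to 21 beyond the printed stretch; 44.6% of all windows hold a GC box. An AP-1 motif was present in POSTN from -220 to -214 (TGAGTCA) and in LRRC15 from -48 to -42 (TGACTCA), against 7.76% of all windows. The CAGAC box occurred in POSTN from -77 to -73, and in 45.0% of all windows. No motif was found in all 3 windows, and no searched motif overlapped another. The CCAAT box and the TEAD motif occur in 35.7% and 14.0% of all windows. These matches describe letters in the window and were not tested for binding.

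**Figure D1:**
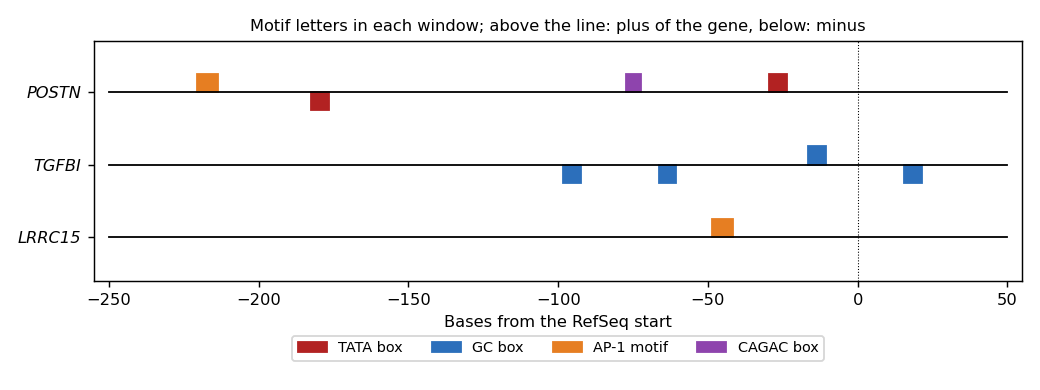
Motif matches in the promoter windows of POSTN, TGFBI and LRRC15, by distance in bases from the RefSeq start, with boxes above the line for the gene's own strand and below it for the other. POSTN carries TATA matches, TGFBI carries 4 GC boxes and no TATA match, and the AP-1 motif is found in POSTN and LRRC15.

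ZNF469, the target of the hairpin and a zinc finger protein known from connective tissue disorders of the cornea, was measured first as a check of the labels. Its level in counts scaled to library size by the TMM method (CPM) was 118, 112 and 126 in the DOX- libraries and 80.4, 80.4 and 79.6 in the DOX+ libraries. All 3 DOX+ libraries lay below all 3 DOX- libraries, an order held by 10.6% of all features tested. The log2 fold change was -0.57 (standard error 0.0477, edgeR quasi-likelihood test, adjusted p = 3.31e-05), so 67.5% of the transcript remained and the knockdown was partial.

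POSTN had the largest relative rise and the lowest level of the 4 genes. Its raw counts were 353, 361 and 337 in DOX- and 558, 582 and 507 in DOX+, or 10.4, 10.3 and 9.66 CPM against 15.6, 16.4 and 14.0 CPM. The groups did not overlap. DOX+ replicate 3 was the lowest of the induced libraries, and DOX+ replicate 2, which stood apart on the first component, was the highest. The mean went from 10.1 ± 0.401 to 15.4 ± 1.23 CPM (SD, n = 3 each), a log2 fold change of 0.60 (SE 0.0935) or 152% of the DOX- level. Without DOX+ replicate 2 the log2 fold change was 0.55, and without DOX+ replicate 3 it was 0.66. POSTN was also the least precisely measured. Its SD was 3.97% of the mean in DOX- and 8.04% in DOX+, and counting error alone at its mean count gives 4.72%.

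TGFBI was the most abundant of the 4 and moved least in relative terms. Counts were 67499, 68992 and 70279 in DOX- and 80280, 78968 and 82931 in DOX+. Scaled to library size these were 1993, 1961 and 2015 CPM against 2250, 2228 and 2290 CPM. The lowest DOX+ library was above the highest DOX- library by 0.14 on the log2 scale, the narrowest gap of the 4 genes. The mean went from 1990 ± 26.9 to 2256 ± 31.5 CPM (SD, n = 3 each), a log2 fold change of 0.18 (SE 0.0216) or 113% of the DOX- level. The libraries of a group differed little for this gene, with an SD of 1.35% and 1.40% of the mean; counting error gives 0.366%. Without DOX+ replicate 2 the log2 fold change was 0.19.

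LRRC15 held an intermediate place. Counts were 1242, 1238 and 1257 in DOX- and 1612, 1644 and 1647 in DOX+, or 36.7, 35.2 and 36.0 CPM against 45.2, 46.4 and 45.5 CPM. All DOX+ values were above all DOX- values by at least 0.30 on the log2 scale, and within each group the libraries were nearly level. The mean went from 36.0 ± 0.741 to 45.7 ± 0.619 CPM (SD, n = 3 each), a log2 fold change of 0.34 (SE 0.0476) or 127% of the DOX- level. The SD was 2.06% and 1.36% of the mean, below the 2.64% that counting error gives at its mean count. Without DOX+ replicate 2 the log2 fold change was 0.33.

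SCUBE3 changed by nearly the same factor as LRRC15 at a higher level. Counts were 3344, 3468 and 3595 in DOX- and 4552, 4596 and 4608 in DOX+, or 98.7, 98.6 and 103 CPM against 128, 130 and 127 CPM. The groups were separated by 0.30 on the log2 scale, and the induced libraries were closer to each other than the uninduced ones. The mean went from 100.1 ± 2.55 to 128 ± 1.30 CPM (SD, n = 3 each), a log2 fold change of 0.36 (SE 0.0393) or 128% of the DOX- level. Without DOX+ replicate 2 the log2 fold change was 0.35.

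**Figure D2:**
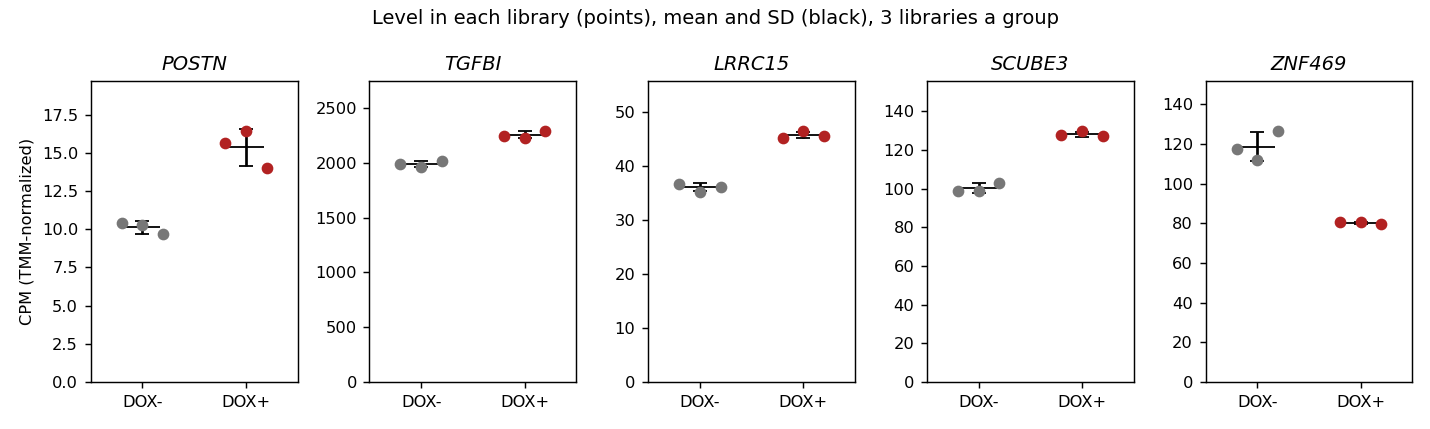
Level of POSTN, TGFBI, LRRC15, SCUBE3 and ZNF469 in each of the 3 DOX- and 3 DOX+ libraries, in TMM-normalized CPM on axes that start at 0, with the group mean and SD in black. For the first 4 genes every DOX+ point is above every DOX- point; for ZNF469 the order is the opposite.

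In all 4 genes every DOX+ library was above every DOX- library, an order held by 9.73% of all features tested; since the 4 were picked for rising, nothing is read from that. None of the 4 reached an absolute log2 fold change of 1. Ranked by log2 fold change among the 13991 features, POSTN was at position 205, SCUBE3 at 560, LRRC15 at 584 and TGFBI at 1419. POSTN was at the foot of the 4 in level and at the head in fold change, and TGFBI the reverse. The 4 genes together gained 309 CPM, of which TGFBI made up 86.1%. Over the same libraries COL1A1, COL1A2 and COL3A1, the chains of collagen I and III whose fall was part of the choice, lost 9104 CPM, with log2 fold changes of -0.69, -0.50 and -0.50.

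**Figure D3:**
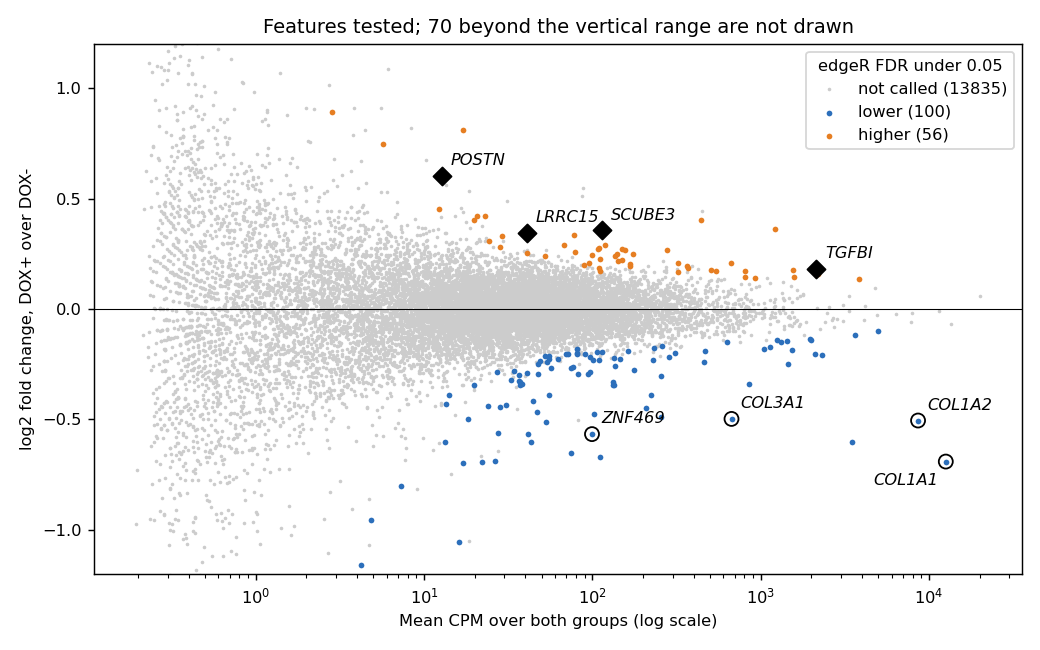
Log2 fold change of each feature tested against its mean CPM on a log scale, with features called higher in orange, called lower in blue and not called in grey; black diamonds are the 4 genes and circles ZNF469 and the 3 collagen chains. The 4 genes run from POSTN at a mean of 12.7 CPM to TGFBI at 2123 CPM, and the rarest has the largest fold change.

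Per transcript length the order was the same. In the deposited FPKM values, which are scaled to transcript length, TGFBI was at 646 ± 7.38 in DOX- and 752 ± 7.24 in DOX+ (SD, n = 3 each), and SCUBE3 at 12.2 ± 0.181 and 16.1 ± 0.312. LRRC15 was at 5.61 ± 0.0353 and 7.21 ± 0.201 FPKM, and POSTN at 2.85 ± 0.155 and 4.44 ± 0.390 FPKM. No neighbours in this order overlapped in either group. TGFBI was thus 226 times POSTN in DOX- cells and 169 times in DOX+ cells, LRRC15 1.97 and 1.62 times, and SCUBE3 4.29 and 3.62 times. Among the 17806 features above 0 FPKM in DOX- cells, TGFBI ranked 68, SCUBE3 4483, LRRC15 7148 and POSTN 9102. POSTN was therefore near the middle of the detected features, whereas TGFBI was among the most abundant transcripts of these fibroblasts.

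Within the groups the spread differed between the 4 genes. The SD of log2 CPM around the group means was 0.0928 for POSTN, 0.0277 for SCUBE3, 0.0252 for LRRC15 and 0.0198 for TGFBI. In both groups replicate 3 held the lowest POSTN and the highest TGFBI. In DOX- replicate 3 POSTN was 0.07 below its group mean on the log2 scale and TGFBI 0.02 above; in DOX+ replicate 3 POSTN was 0.13 below and TGFBI 0.02 above. SCUBE3 was highest in DOX- replicate 3 and in DOX+ replicate 2, and LRRC15 in DOX- replicate 1 and DOX+ replicate 2. The spread of LRRC15, and that of POSTN in DOX-, is no wider than counting error, so whether the genes vary together within a group cannot be read from these libraries.

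The features with the most similar pattern to each gene were found by Pearson's r of log2 CPM over the 6 libraries among 11810 other annotated features. All 6 libraries share the same step between groups, so r over so few points carries that step, and it is a description with no p. For POSTN the nearest were SMARCE1, a chromatin remodelling subunit (r = 0.998), NCOA4, a ferritin receptor (r = 0.996), and MBNL1, a splicing factor (r = 0.994). They differed from POSTN in size, since their log2 fold changes were 0.07, 0.13 and 0.17. For TGFBI the nearest were XYLT1, an enzyme that starts proteoglycan sugar chains (r = 0.996), FAM111B, a protease (r = 0.994), and TNRC6B, a microRNA effector (r = 0.994), with log2 fold changes of 0.25, 0.21 and 0.25. For LRRC15 they were LPP, a focal adhesion protein (r = 0.992), SCUBE3 itself (r = 0.989) and P3H2, a collagen prolyl hydroxylase (r = 0.987). For SCUBE3 they were NPR3, a natriuretic peptide clearance receptor (r = 0.992), LRRC15 (r = 0.989) and KPNA6, an importin (r = 0.988). Around the group means the r of LRRC15 with SCUBE3 was 0.28 over the same 6 libraries.

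The nearest tested gene on each side of each of the 4 was examined, since these genes share a chromosome region but were not used in the choice. They lay at distances of 5.83 to 629 kb. Of the 8 nearest tested genes, 1 was called higher and 0 lower, against 0.400% and 0.715% of all features tested. That gene was ATP13A3, a polyamine transporter 32.9 kb from LRRC15, which went from 342 ± 15.0 to 392 ± 15.3 CPM (SD, n = 3 each; log2 fold change 0.20, edgeR adjusted p = 0.0376), which stayed under 0.05 only when DOX+ replicate 3 was the library left out and otherwise reached up to 0.164. HES1, a Notch target 217 kb on the other side of LRRC15, was at 2.88 and 4.45 CPM (adjusted p = 0.116, edgeR). TRPC4, a cation channel 33.2 kb from POSTN, was at 11.7 ± 0.414 and 14.8 ± 0.494 CPM (log2 fold change 0.34, edgeR adjusted p = 0.0742). SUPT20H, 503 kb away on the other side of POSTN, had a log2 fold change of -0.03. Beside TGFBI, SMAD5, a BMP signal transducer at 69.0 kb, was at 69.8 and 78.9 CPM (edgeR adjusted p = 0.127). H2AFY, which encodes a histone variant and lies 629 kb from TGFBI, was at 120.5 and 120.1 CPM. Beside SCUBE3, ZNF76 at 5.83 kb and ANKS1A at 123 kb had log2 fold changes of -0.05 and 0.11 (edgeR adjusted p = 0.838 and 0.494).

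Lists of related genes were then read against the share of all 13991 features that each test called. EdgeR called 0.400% higher (56 features) and 0.715% lower at an adjusted p under 0.05, and 7.31% higher and 7.69% lower at an unadjusted p under 0.05. DESeq2 called 1.86% higher and 1.91% lower, and limma-voom 0.400% and 0.700%. The closest relatives of the 4 genes by protein family were few or barely expressed. The other FAS1-domain genes, STAB1 and STAB2, held 5 and 10 counts over all 6 libraries and were not tested. Of the other SCUBE genes, SCUBE1 held 2 counts in all, and SCUBE2 was at 2.58 and 2.62 CPM in DOX- and DOX+ (log2 fold change 0.02, SE 0.175, edgeR adjusted p = 0.974); by an unadjusted p under 0.05, DESeq2 and limma-voom the number called was also 0. Among 22 genes for leucine-rich repeat proteins of the membrane or matrix, 12 were tested, of which 2 were called higher and 0 lower, against 0.400% and 0.715% of all features. Their median log2 fold change was 0.05, and that of all features -0.0019. LRRN3, a neuronal-type leucine-rich repeat membrane protein, rose from 68.7 to 86.8 CPM (log2 fold change 0.34, SE 0.0517, edgeR adjusted p = 0.00558). LRRC17, a secreted leucine-rich repeat protein, rose from 155 to 178 CPM (log2 fold change 0.20, edgeR adjusted p = 0.0435), but its adjusted p stayed under 0.05 only when DOX+ replicate 3 was the library left out and otherwise reached up to 0.176. At an unadjusted p under 0.05, 4 genes of the list were higher and 0 lower, and DESeq2 and limma-voom each called 2 higher and 0 lower.

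POSTN and TGFBI act through integrins. Of 8 integrin subunits of their receptors 7 were tested, and edgeR called 0 of them. At an unadjusted p under 0.05, 4 were higher and 0 lower (7.31% and 7.69% of all features). DESeq2 called 1 higher, against 1.86% of all features, and limma-voom 0. The median log2 fold change of the list was 0.09. ITGB1, the common beta subunit and the most abundant, was at 4638 and 4949.9 CPM (edgeR adjusted p = 0.181), and ITGA3, a laminin-binding alpha subunit, at 618 and 609 CPM. ITGAV, the alpha subunit of the vitronectin-type receptors of POSTN and singled out after its value was seen, was at 243 and 283 CPM (log2 fold change 0.22, SE 0.0494, edgeR adjusted p = 0.0587). Its call depended on the processing, since 5 of 13 other settings called it higher. Over those 13 settings its adjusted p (edgeR, DESeq2 or limma-voom) ranged from 0.000324 to 0.226.

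Of 12 matrix partners of POSTN and TGFBI, all of them tested, 2 were called higher and 4 lower, against 0.400% and 0.715% of all features. The list's median log2 fold change was -0.06. LOX, the lysyl oxidase that crosslinks collagen, rose from 1456 to 1644 CPM (log2 fold change 0.18, SE 0.0263, edgeR adjusted p = 0.00531). TNC (tenascin-C), a matricellular partner of periostin, rose from 760 to 841 CPM (log2 fold change 0.15, edgeR adjusted p = 0.0376), which passed only when DOX+ replicate 2 was the library left out and otherwise reached up to 0.172. COL5A2, a chain of collagen V, fell by 0.34 on the log2 scale (edgeR adjusted p = 2.29e-05), COL6A1 and COL6A3 of collagen VI by 0.21 and 0.12 (edgeR adjusted p = 0.00214 and 0.00901) and DCN (decorin), a collagen-binding proteoglycan, by 0.18 (edgeR adjusted p = 0.00557). COL6A3 no longer passed without DOX- replicate 1 or 3 or DOX+ replicate 1 (edgeR adjusted p up to 0.0855), nor DCN without DOX- replicate 1 (edgeR adjusted p = 0.0529). FN1 (fibronectin), which binds both POSTN and TGFBI and is named here after its value was seen, had a log2 fold change of 0.06 (edgeR adjusted p = 0.0775). It was called higher in 3 of 13 other settings, over which its adjusted p (edgeR, DESeq2 or limma-voom) ranged from 0.00334 to 0.261.

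Since POSTN, TGFBI and LRRC15 are TGF-β inducible, the pathway was read at its components and at its targets. None of 19 tested genes for TGF-β ligands, receptors, latent binding proteins and SMADs was called by edgeR, and their median log2 fold change was -0.00063. At an unadjusted p under 0.05, 3 were higher and 1 lower, against 7.31% and 7.69% of all features. DESeq2 called 2 higher, against 1.86% of all features, and limma-voom 0. LTBP1, which stores latent TGF-β in the matrix, was at 854 and 849 CPM, and SMURF2, a ubiquitin ligase for SMADs and receptors, at 400.4 and 407 CPM. Named after their values were seen, the ligand gene TGFB1 was at 102 and 100.2 CPM, the receptor genes TGFBR1 and TGFBR2 had log2 fold changes of 0.21 and 0.10 (edgeR adjusted p = 0.0739 and 0.252), and SMAD3 of 0.12 (edgeR adjusted p = 0.160). Of 13 other settings, 3 called TGFBR1 higher and 1 called SMAD3 higher.

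Among 25 other genes that TGF-β is known to induce in fibroblasts, 23 were tested, of which 3 were called higher and 0 lower, against 0.400% and 0.715% of all features. The median log2 fold change of the list was 0.03. INHBA, the subunit of activin A, rose from 299 to 346 CPM and PLOD2, a lysyl hydroxylase of collagen telopeptides, from 159 to 189 CPM (log2 fold change 0.21 and 0.25, edgeR adjusted p = 0.0202 and 0.0325). INHBA passed only without DOX+ replicate 2 or 3, and PLOD2 only without DOX- replicate 2 or DOX+ replicate 3, when libraries were left out in turn (edgeR adjusted p otherwise up to 0.108 and 0.164). At an unadjusted p under 0.05, 8 were higher and 1 lower, against 7.31% and 7.69% of all features. DESeq2 called 6 higher, against 1.86% of all features, and limma-voom 3, against 0.400%. Other classic targets were not called. ACTA2, the smooth muscle actin of myofibroblasts, had a log2 fold change of 0.12 (edgeR adjusted p = 0.0774). Its call depended on the processing, since 4 of 13 other settings called it higher. Over those 13 settings its adjusted p (edgeR, DESeq2 or limma-voom) ranged from 0.00483 to 0.265. CCN2, listed as CTGF, had a log2 fold change of 0.01 (edgeR adjusted p = 0.893). Both ACTA2 and CCN2 are named after their values were seen.

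LRRC15 and POSTN are also known from myofibroblasts of fibrotic lung and tumour stroma. Of 20 further genes of those cells 15 were tested, and edgeR called 0, DESeq2 0 and limma-voom 0. At an unadjusted p under 0.05, 1 was higher and 1 lower, against 7.31% and 7.69% of all features. The median log2 fold change was -0.02. GREM1, a BMP antagonist, was at 4939 and 4855 CPM and MMP14, a membrane-bound collagenase, at 789 and 769 CPM. CTHRC1, a secreted marker of collagen-producing fibroblasts, and FAP, a membrane protease of activated fibroblasts, both named after their values were seen, had log2 fold changes of 0.05 and 0.04 (edgeR adjusted p = 0.594 and 0.716).

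SCUBE3 and its relatives are known as carriers and co-receptors for Hedgehog and BMP ligands. Of 16 Hedgehog pathway genes 13 were tested, with a median log2 fold change of 0.06. EdgeR, DESeq2, limma-voom and an unadjusted p under 0.05 each called 0 of them. At that unadjusted p, 7.31% of all features were higher and 7.69% lower. The ligand genes SHH, IHH and DHH held 2, 0 and 14 counts over all 6 libraries. GLI2, a transcription factor of the pathway, was at 41.2 and 44.1 CPM and SMO, the transducer of the pathway, at 29.7 and 30.6 CPM. Of 17 BMP pathway genes 14 were tested. EdgeR and limma-voom called 0 of them, and DESeq2 called 2 higher, against 1.86% of all features. At an unadjusted p under 0.05, 2 were higher and 0 lower, against 7.31% and 7.69% of all features. The median log2 fold change of the list was 0.01. The BMP target genes ID3 and ID2 were at 182 and 193 CPM and at 165 and 174 CPM.

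POSTN is also a known target of IL-4 and IL-13. The genes of these cytokines were at 0 in every library. Of 14 genes of their receptors, signal transducers and targets with the cytokines included, 8 were tested. EdgeR and limma-voom called 0 of them, and DESeq2 called 1 higher, against 1.86% of all features. At an unadjusted p under 0.05, 1 was higher and 3 lower (7.31% and 7.69% of all features). The median log2 fold change of the list was -0.09. JAK1, the receptor-associated kinase, was at 219 and 223 CPM and IL13RA1, a receptor subunit, at 105 and 117 CPM (edgeR adjusted p = 0.106).

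**Figure D4:**
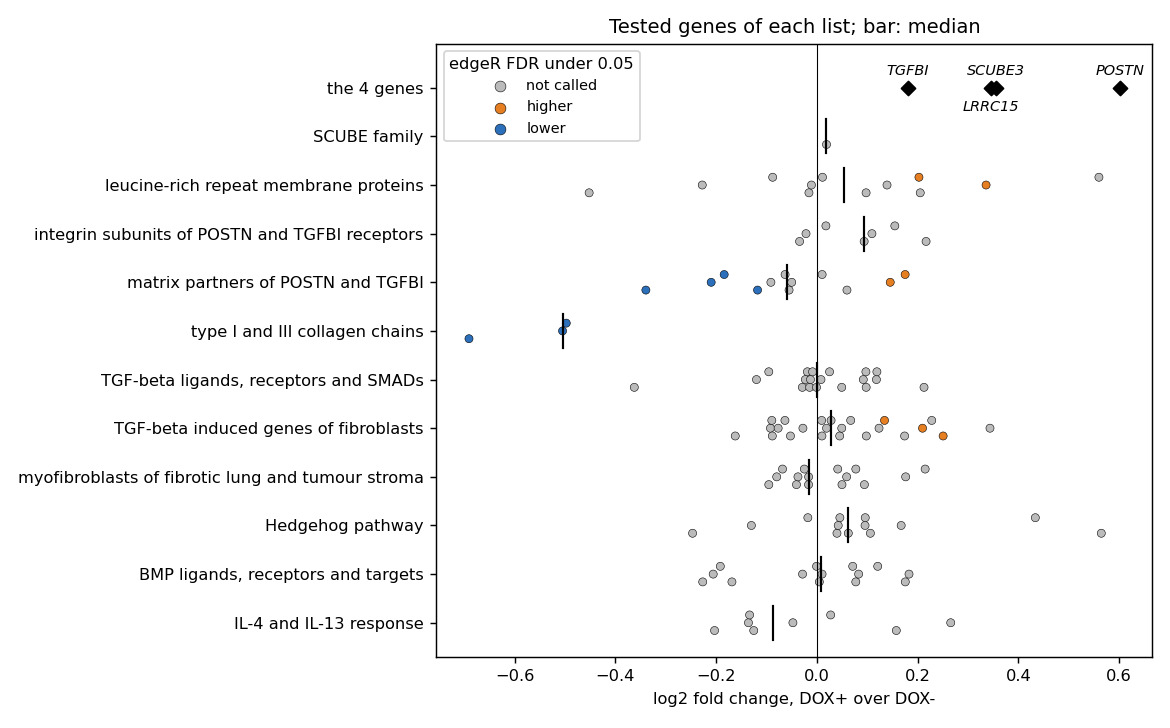
Log2 fold change of the tested genes of each list, with called genes in colour and a bar at the list's median; black diamonds are the 4 genes, which were chosen on this comparison and carry no test. Medians of the lists other than the collagen chains lie between -0.09 and 0.09, while the 4 genes lie between 0.18 and 0.60.

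Markers of other cell types were set beside these values. The summed level of 8 epithelial markers ranged from 2.04 to 2.19 CPM in DOX- and from 1.61 to 1.88 CPM in DOX+, with 4 of the 8 at 0 and 0 of the 2 tested called. Those of 6 endothelial markers ranged from 20.1 to 24.4 and from 20.6 to 24.0 CPM, of which TEK made up nearly all, and those of 6 leukocyte markers from 60.7 to 66.8 and from 59.1 to 65.3 CPM, nearly all of it CD68. Of the 6 smooth muscle and pericyte markers, which fibroblasts share in part, 0 were called and the sums ranged from 634 to 698 and from 632 to 674 CPM. The 10 fibroblast markers summed to 36757 to 37886 CPM in DOX- and to 27382 to 28286 CPM in DOX+. Of them 5 were called lower, against 0.715% of all features. Among these were the 3 collagen chains of the choice, which made up 9104 CPM of the fall. DCN and LUM were also called lower (log2 fold change -0.18 and -0.22, edgeR adjusted p = 0.00557 and 0.0499). DCN did not pass without DOX- replicate 1 (edgeR adjusted p = 0.0529). LUM lay just under the threshold, and its call was not followed over other settings. The markers not called by edgeR included VIM, THY1, PDGFRA and PDGFRB, general markers of mesenchymal cells. Their log2 fold changes were -0.02, 0.04, -0.0030 and -0.02, and that of S100A4, also not called, was 0.12. Fewer cells of a type and less RNA per cell cannot be told apart in such bulk libraries.

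The fold changes of the 4 genes depended little on the processing. Over 15 other settings the log2 fold change ranged from 0.55 to 0.66 for POSTN, 0.17 to 0.22 for TGFBI, 0.33 to 0.37 for LRRC15 and 0.35 to 0.39 for SCUBE3. POSTN varied most with the library left out, being lowest without DOX+ replicate 2 and highest without DOX+ replicate 3. With the 3 collagen chains left out of the library totals the values were 0.61, 0.19, 0.35 and 0.36 in the same order.

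**Figure D5:**
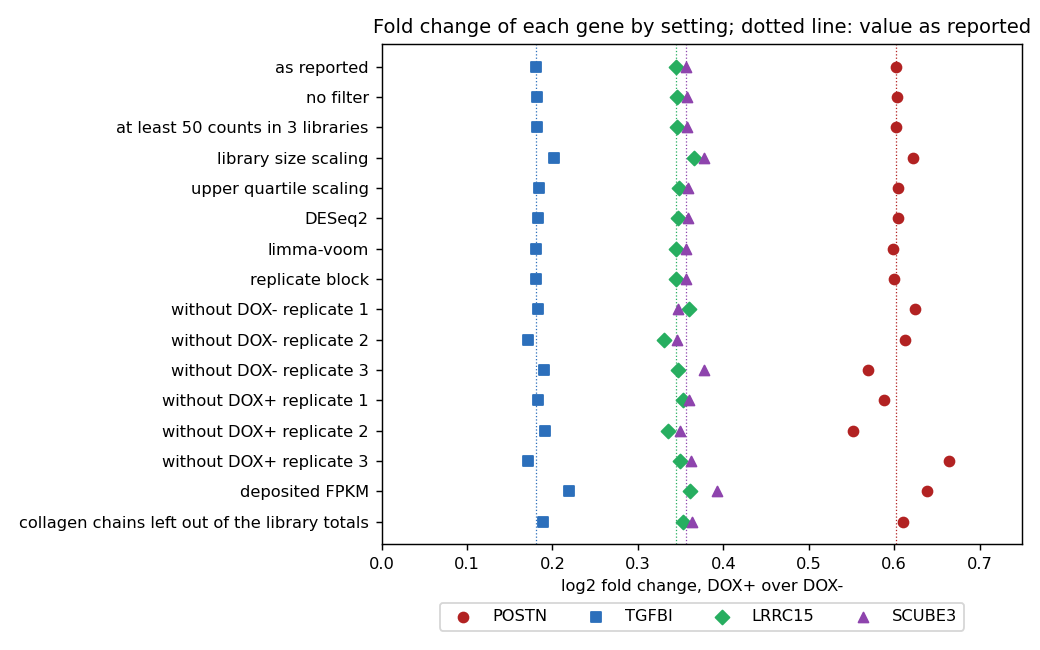
Log2 fold change of POSTN, TGFBI, LRRC15 and SCUBE3 as reported and under 15 other settings, with a dotted line at the reported value. Each gene stays in a narrow band above 0; POSTN moves most when DOX+ replicate 2 or 3 is left out, and TGFBI most in the deposited FPKM values.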

How the data were processed

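The 6 libraries were read from the whole-number counts per gene that the authors deposited, with no normalization, and from the FPKM values that the authors deposited beside them. According to the methods and the submitters' processing notes, quality-filtered reads were placed on GRCh38 by HISAT2 and passed through StringTie. Tool versions, the annotation release and the counting step are not given in the sources used here. Libraries were grouped by their titles. After 17 stray lines were dropped, edgeR 4.0.16 in R 4.3.3 was run with filterByExpr (minimum count 10), TMM scaling, quasi-likelihood tests with no covariate and Benjamini-Hochberg adjusted p-values over 13991 features, with a threshold of 0.05. Scripts were tested on simulated data. CPM use TMM-scaled totals, and a standard error is that of the edgeR log2 fold change. DESeq2 1.42.0, limma-voom (limma 3.58.1), other filters and scalings, a replicate block, left-out libraries and FPKM were alternatives. The 4 genes and all lists were chosen with earlier results of these data known. Genes were named by a rule: the called genes of a list (at most 4 by p), or its 2 most abundant where none was called, together with the nearest tested genes on each side and the 3 nearest patterns. The values of a gene that this rule names are not reported here, although it entered every test and count. Sequences came from RefSeq. The depth of 34057675 to 36120260 counts gives a counting error of 0.366% for TGFBI, 1.58% for SCUBE3, 2.64% for LRRC15 and 4.72% for POSTN. No exact permutation test of 3 against 3 libraries could go below p = 0.1, so none was used.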

Additional observations from a re-analysis of the deposited data

How the results depend on the processing

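The 4 genes kept the direction of their change under all 15 settings. TGFBI moved by more than its spread between libraries with library size scaling (0.20) and with the deposited FPKM values (0.22), and SCUBE3 with FPKM (0.39). The counts over all features were less stable. The 56 features called higher and 100 called lower became 127 and 163 without a filter, 260 and 267 with DESeq2 and 2 and 4 when an absolute log2 fold change over 1 was also required. Leaving out each library gave 20 to 69 higher and 54 to 92 lower. With library size scaling 88 were called higher, so that 53.3% of calls were higher against 35.9% with TMM; that scaling moved the median of all features to 0.02 on the log2 scale. The deviations of same-numbered DOX- and DOX+ libraries from their group means correlated at -0.02, -0.04 and 0.04 over all features. Those of differently numbered libraries correlated at -0.03 to 0.06. With 3 libraries a group, these values cannot show whether an equal number marks a shared culture or batch. With the replicate number as a replicate block, 135 features were called higher and 157 lower. Of the 156 calls, 152 were shared with that fit, 146 with DESeq2 and 133 with library size scaling.

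Among the lists, leaving out a library gave 1 to 2 leucine-rich repeat genes higher, 1 to 3 matrix partners higher and 2 to 4 lower, and 1 to 3 TGF-β induced genes higher; DESeq2 called 6 of the last list higher. Genes near no change turned sign: with library size scaling H2AFY (0.017) and LTBP1 (0.012), and over the fits without a library H2AFY (-0.014 to 0.014), SCUBE2 (-0.081 to 0.076), ITGA3 (-0.051 to 0.016), SMURF2 (-0.0063 to 0.061), SMO (-0.014 to 0.101) and TGFB1 (-0.079 to 0.018). The cause was not tested. For POSTN counting error is 4.72%, against an SD of 3.97% of the mean in DOX- and 8.04% in DOX+. HES1 and SCUBE2 had fewer reads than POSTN. For TGFBI the spread between libraries is wider than counting error.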
